A study of Rattus norvegicus with 7 samples.

Results

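The genes of cholesterol and fatty acid synthesis were followed in 7 cultures of NRK-52E, a rat kidney epithelial cell line, in which the metalloproteinase gene Adamts16 was targeted with siRNA. The set lists 36 genes by symbol: 18 act in sterol synthesis, 10 in fatty acid synthesis, and 8 regulate the pathway or move sterols. Of these, 34 had a probe set, with 58 probe sets among 31042 on the array, and 19 of them had several. Hmgcs1 and Npc1 were not analysed here. Tests covered the 18625 probe sets in the upper 60% by mean signal, among them 54 of the 58 and 33 of the 34 genes. The exception was Scd, a fatty acid desaturase, whose signal ran from 5.57 to 42.9 across the 7 arrays, under the tested level of 68.2. Each gene was represented by its brightest tested probe set, and other probe sets are described by name.

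Each array held RNA of 1 independent culture. The siRNAs against Adamts16, named 3488 and 2600, were used in 2 cultures each, and a scrambled siRNA in 3 control cultures. All 7 cultures grew in DMEM with 10% fetal bovine serum, were seeded at 20% confluence, and received their siRNA 6 h later with Lipofectamine 2000 at 100 pmol per ml of medium. RNA was taken after 48 h. The controls were therefore also transfected, every culture came from 1 established line, and 2 cultures per siRNA gave little information on the spread within each siRNA. Fewer cells carrying a transcript and less of it per cell cannot be told apart in such RNA.

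Cholesterol is built from acetyl-CoA through mevalonate, isoprenoid phosphates, squalene and lanosterol. When sterols run low in the endoplasmic reticulum, the transcription factor SREBP-2, made by Srebf2, is carried by Scap to the Golgi, released by proteases, and switches on most genes of this route. Insig1 and Insig2 hold Scap and SREBP back when sterols are plentiful. The related factor SREBP-1, made by Srebf1, acts more on fatty acid synthesis.

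The reagents and the promoters of some members are shown first. The antisense strands of the siRNAs follow without their overhangs, 5′ to 3′, as given in the sample labels. Capitals mark the seed, bases 2 to 8, which differed among the 3 siRNAs.
siRNA 3488: tTTCCGGAgacgtacttct
siRNA 2600: tTGCGCACagaaatatagg
scrambled siRNA: aTTACCGAgcacattggagg

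The 200 bases before the annotated start are given below from RefSeq, build GRCr8, on the strand of the gene. Of 30 promoter entries of members compared, 12 had a start equal to the 5′ end in the RefSeq gene annotation. The starts of the rest differed from it, and the motif counts use the starts of the promoter entries. Capitals mark matches on either strand to 4 motifs: TCACNCCA (a form of the sterol regulatory element), CCAAT (the NF-Y box), GGGCGG (the Sp1 box) and CACGTG (an E-box). NF-Y and Sp1 are known partners of SREBPs. Idi1, Cyp51 and Dhcr7 were higher with siRNA 2600, Srebf2 was higher with siRNA 3488, and Msmo1 is shown as the sterol enzyme gene with a TCACNCCA match. Msmo1 did not pass the test, and promoters of other called members, Acat2 and Insig2 among them, are not printed. TCACNCCA was found in 2 of the 29 members with a promoter entry, and both are printed here.
Idi1, chr17:66547525-66547724, strand -: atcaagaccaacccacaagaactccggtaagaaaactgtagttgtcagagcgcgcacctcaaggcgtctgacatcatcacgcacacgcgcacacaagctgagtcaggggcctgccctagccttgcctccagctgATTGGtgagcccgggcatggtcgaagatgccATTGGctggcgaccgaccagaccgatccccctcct
Cyp51, chr4:30991493-30991692, strand +: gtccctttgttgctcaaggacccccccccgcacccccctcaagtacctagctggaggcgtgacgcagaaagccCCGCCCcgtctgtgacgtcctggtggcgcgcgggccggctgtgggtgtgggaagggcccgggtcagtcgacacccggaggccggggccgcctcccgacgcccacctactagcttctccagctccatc
Dhcr7, chr1:208444234-208444433, strand +: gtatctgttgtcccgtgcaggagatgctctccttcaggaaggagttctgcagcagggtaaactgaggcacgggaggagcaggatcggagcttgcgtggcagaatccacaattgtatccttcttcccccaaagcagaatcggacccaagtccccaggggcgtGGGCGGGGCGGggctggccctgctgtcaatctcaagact
Msmo1, chr16:29746913-29747112, strand +: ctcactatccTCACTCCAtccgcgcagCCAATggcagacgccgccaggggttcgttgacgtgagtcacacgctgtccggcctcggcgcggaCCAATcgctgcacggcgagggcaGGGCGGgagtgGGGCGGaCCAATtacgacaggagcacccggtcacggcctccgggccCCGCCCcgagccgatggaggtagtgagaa
Srebf2, chr7:115543107-115543306, strand +: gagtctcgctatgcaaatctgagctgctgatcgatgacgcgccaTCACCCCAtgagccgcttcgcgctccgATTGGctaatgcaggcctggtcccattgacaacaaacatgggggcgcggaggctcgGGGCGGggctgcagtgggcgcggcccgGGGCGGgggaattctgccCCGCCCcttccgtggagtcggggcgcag
In a window of 250 bases before the start, 29 of the 36 genes had a promoter entry, Hmgcs1 and Npc1 among them. CCAAT was found in 12 of 15 sterol synthesis promoters (80%), against 36.1% of the 27457 promoters in the table. GGGCGG was found in 13 of 15 (86.7%), against 33.5%. TCACNCCA was found in 1 of 15, against 3.56% of all promoters, and CACGTG in 1 of 15, against 6.18%. Among the fatty acid genes 5 of 7 promoters held CCAAT, 4 held GGGCGG, 1 held CACGTG and 0 held TCACNCCA. Of the regulators, 4 of 7 promoters held CCAAT, 6 held GGGCGG, 3 held CACGTG and 1, that of Srebf2, held TCACNCCA. These matches describe letters and overlap between neighbouring GGGCGG matches was allowed. The shares over all promoters were not limited to genes tested on the arrays. No binding was measured.

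Deposited signals were already scaled, with array medians of 126 to 139 and trimmed means of 500.1 to 500.2. Adamts16 itself read 2.42 to 40.4, under the tested level, and in the limma fit with no filter its log2 change was 1.06 ± 1.04 (SE) with siRNA 3488 and -0.56 ± 1.04 with siRNA 2600 (adjusted p = 0.612 and 0.903), so these arrays gave no check of the knockdown. On the second principal component the siRNA 2600 arrays lay at -24.9 and -16.2 and the others at 1.13 to 17.7. On the first, the siRNA 3488 arrays lay at -37.2 and -22.3 and the controls at 11.4 to 20.1. There the siRNA 2600 arrays split, with replicate 1 at 17.7, within the controls, and replicate 2 at -6.72. Epithelial Krt8 and Tjp1 averaged 5963 and 6382 in the controls, while Cdh1 and Epcam, also markers of epithelium, averaged 5.13 and 19.0, and 4 of 10 epithelial and 4 of 9 proximal tubule markers passed the level. Of 5 leukocyte markers 2 passed, Cd14 and Cd68, which averaged 5869 and 230 in the controls, while Ptprc averaged 4.73. Of 4 endothelial markers with a probe set 1 passed, Tek, at 248. The 10 fibroblast markers, led by Col3a1 and Vim and with 6 above the level, summed to 46512 to 52392 with siRNA 3488, 39038 to 41317 with siRNA 2600 and 37182 to 38053 in the controls. The 10 epithelial markers summed to 13156 to 13868, 12329 to 12713 and 12459 to 13401. The ratio of 3′ to 5′ beta-actin signal, a measure of RNA quality, was 1.94 to 1.96, 1.81 to 1.83 and 1.74 to 1.79 in the same order. The 18 hybridisation control probe sets had a median log2 change against the control of 0.52 with siRNA 3488 and 0.031 with siRNA 2600. The part of these shifts in the results that follow was not tested.

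With siRNA 2600, 3 of 17 tested sterol synthesis genes rose past the test, and 14 did not pass. By their brightest probe sets all 17 had a log2 change above 0, from 0.16 to 0.85 with a median of 0.29, where 52.4% of the 10019 genes tested lay above 0 and their median was 0.00938. The 3 that rose were Idi1, Sqle and Dhcr7, against 0.729% of all genes called higher and 0.369% called lower. Cyp51 rose by its second probe set, while the second probe sets of Idi1 and Nsdhl lay below 0 (-0.15 each). Both siRNA 2600 arrays lay above all 3 control arrays for 14 of the 17, against 18.8% of all genes, and overlapped them for Mvk, Lss and Fdft1. Tests used limma on log2 signals, and a gene was called at a Benjamini-Hochberg adjusted p under 0.05 over all probe sets tested.

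The direction was seen on each siRNA 2600 array. Replicate 1 exceeded every control for 14 of the 17 genes and replicate 2 for 16, against 33.9% and 34.2% of all genes. All 17 changes stayed above 0 with any 1 array left out (medians 0.27 to 0.35) and under 3 other normalizations (medians 0.31 to 0.38). Under those normalizations the median of all genes was 0.018 to 0.095. The calls were less stable. Without either siRNA 3488 array 1 of the 17 was called, and 0 were called without siRNA 2600 replicate 1 or 2 or any of control replicates 1, 2 and 3. A variance model with no intensity trend, and tests with no filter on low signals, also left 0.

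**Figure D1:**
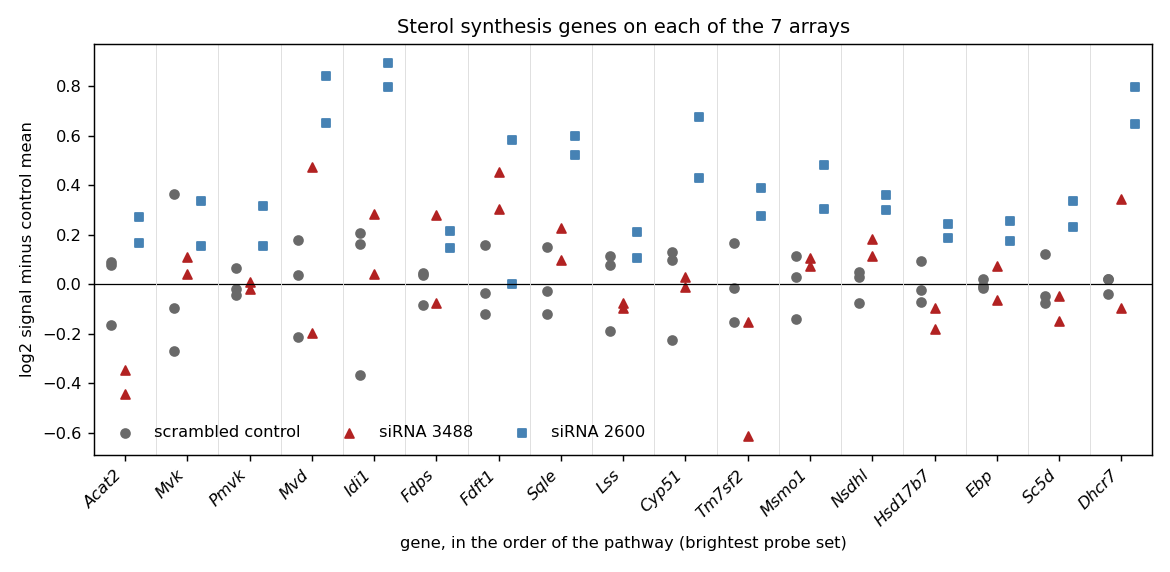
Log2 signal minus the mean of the control arrays (vertical axis) for the 17 tested sterol synthesis genes in pathway order, 1 point per array (grey circles, 3 control arrays; red triangles, 2 siRNA 3488 arrays; blue squares, 2 siRNA 2600 arrays). The blue squares lie above all grey circles for 14 genes, and the red triangles fall on either side of 0.

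Idi1 makes dimethylallyl pyrophosphate, the primer of isoprenoid chains. Its signal was 1311 and 1225 with siRNA 2600 and 724 and 857 with siRNA 3488, against 788, 813 and 547 in the controls. Both siRNA 2600 arrays stood above the other 5, and siRNA 3488 overlapped the controls. Mean signals (± SD) were 1268 ± 60.4 for siRNA 2600 (n = 2), 791 ± 93.5 for siRNA 3488 (n = 2) and 716 ± 147 for the control (n = 3). The log2 change with siRNA 2600 was 0.85 ± 0.16 (SE; 1.80-fold; limma adjusted p = 0.0369), against 0.16 ± 0.16 for siRNA 3488 (adjusted p = 0.517). A dimmer probe set, 1388872_at, gave -0.15 and -0.23, neither past the test, so the Idi1 rise rests on 1368878_at.

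Sqle, squalene epoxidase, takes the first oxygenation step of the sterol branch. It read 723 and 685 with siRNA 2600 and 510 and 557 with siRNA 3488, against 529, 438 and 468 in the controls. Again siRNA 2600 was apart from all other arrays. The log2 change was 0.56 ± 0.11 with siRNA 2600 (1.48-fold; limma adjusted p = 0.0405) and 0.16 ± 0.11 with siRNA 3488 (adjusted p = 0.333). Cyp51, the lanosterol demethylase, was measured by a pair of probe sets. Probe set 1387020_at read 969 and 910 with siRNA 2600 and 643 and 694 with siRNA 3488, against 650, 606 and 511 in the controls. The brighter 1367979_s_at, of a kind that can match several transcripts, read 2779 and 2347, then 1728 and 1776, then 1907, 1862 and 1489. In both probe sets the siRNA 2600 arrays were the highest, with log2 changes of 0.68 ± 0.11 (1.60-fold; limma adjusted p = 0.0241) and 0.55 ± 0.11 (1.47-fold; adjusted p = 0.0503, just short of the threshold).

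Dhcr7 catalyses the last step to cholesterol. Its signal was 1027 and 926 with siRNA 2600 and 553 and 750 with siRNA 3488, against 599, 599 and 574 in the controls. The controls lay close together, the siRNA 3488 arrays fell on either side of them, and the siRNA 2600 arrays were above all. The log2 change with siRNA 2600 was 0.72 ± 0.12 (1.65-fold; limma adjusted p = 0.0276), against 0.12 ± 0.12 for siRNA 3488 (adjusted p = 0.524). Without siRNA 2600 replicate 1 or 2 the adjusted p for siRNA 2600 rose above 0.05, as it did for Idi1, Sqle and Cyp51.

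The other steps had values above 0 with siRNA 2600 that did not pass the test. Mvd, which makes isopentenyl pyrophosphate, read 242 and 276 with siRNA 2600, against 158, 174 and 133 in the controls and 134 and 214 with siRNA 3488, a log2 change of 0.75 ± 0.22 with siRNA 2600 (limma adjusted p = 0.144). Msmo1, the methylsterol oxidase, read 2296 and 2033 against 1778, 1677 and 1491, and 1728 and 1768 with siRNA 3488 (0.39 ± 0.088, adjusted p = 0.0703). Both siRNA 2600 arrays were above the controls in each. Mvk and Pmvk, the mevalonate and phosphomevalonate kinases, had values of 0.24 each. Fdps, the farnesyl pyrophosphate synthase, Lss, the lanosterol synthase, and Ebp, the sterol isomerase, had 0.18, 0.16 and 0.22. Hsd17b7, the ketosterol reductase, had 0.21. Further probe sets gave 0.39 for Mvk, 0.35 for Hsd17b7 and 0.19 for Fdft1, and -0.15 for Nsdhl. The dimmest Mvk probe set, at 3.99 to 7.67, and the dimmer of Lss, at 12.9 to 106, were not tested.

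With siRNA 3488 the same class showed no common direction. Of the 17 genes 11 lay above 0, with a median log2 change of 0.077, where 46.4% of all genes lay above 0 and their median was -0.022. In this comparison 9.31% of all genes were called higher and 7.6% lower, and of the sterol genes 0 were called higher and 1, Acat2, lower, with 3 of 17 at an unadjusted p under 0.05, against 33.3% of all genes. The split of these calls moved with the scaling. With median centring 12.1% of all genes were called higher and 2.06% lower, Fdft1 was the 1 sterol gene called higher and 0 were called lower. With the deposited scaling the brightest Fdft1 probe set gave 0.38 with siRNA 3488 and the second, 1389906_at, -0.17, neither past the test. Replicate 1 lay below every control for 6 of the 17 and above every control for 2, while replicate 2 lay below for 3 and above for 8. Of all genes, 38.2% and 40.1% lay below every control on these arrays and 32.9% and 34.5% above. Without replicate 2 the median turned to -0.065.

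Acat2, the cytosolic thiolase that starts the route, read 480 and 511 with siRNA 3488 and 785 and 731 with siRNA 2600, against 582, 686 and 692 in the controls. The 3 groups did not overlap, with siRNA 3488 lowest and siRNA 2600 highest. The mean signals ± SD were 496 ± 22.6, 758 ± 38.6 and 653.5 ± 62.4 in that order of groups. Acat2 fell by 0.40 ± 0.10 on the log2 scale with siRNA 3488 (1.32-fold lower; limma adjusted p = 0.0298), and its change with siRNA 2600 was 0.22 ± 0.10 (adjusted p = 0.359). The fall was not called without siRNA 3488 replicate 1 or 2, without control replicate 2 or 3, or under the 3 other normalizations, where the adjusted p reached 0.126.

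The difference between the siRNAs was then tested directly. Of the 17 sterol genes 6 were called lower with siRNA 3488, namely Acat2, Idi1, Cyp51, Tm7sf2, Sc5d and Dhcr7, and 0 higher, against 3.42% and 3.53% of all genes. By the brightest probe sets all but Fdft1, 16 genes, lay below 0, and the median was -0.35, against -0.018 over all genes. The second Fdft1 probe set, 1389906_at, lay below 0 as well, at -0.37 ± 0.11 (limma adjusted p = 0.0884). Both siRNA 3488 arrays lay below both siRNA 2600 arrays for 15 of the 17, against 28.3% of all genes. The sign of the median held with any array left out (-0.38 to -0.29) and under the 3 other normalizations (-0.34 to -0.29). The number called did not. It was 0 without siRNA 3488 replicate 1 or siRNA 2600 replicate 1, 1 without control replicate 1 or 2, 2 without siRNA 3488 replicate 2, 3 without control replicate 3 and 4 without siRNA 2600 replicate 2. It was also 0 with no intensity trend and with the arrays of these siRNAs alone.

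**Figure D2:**
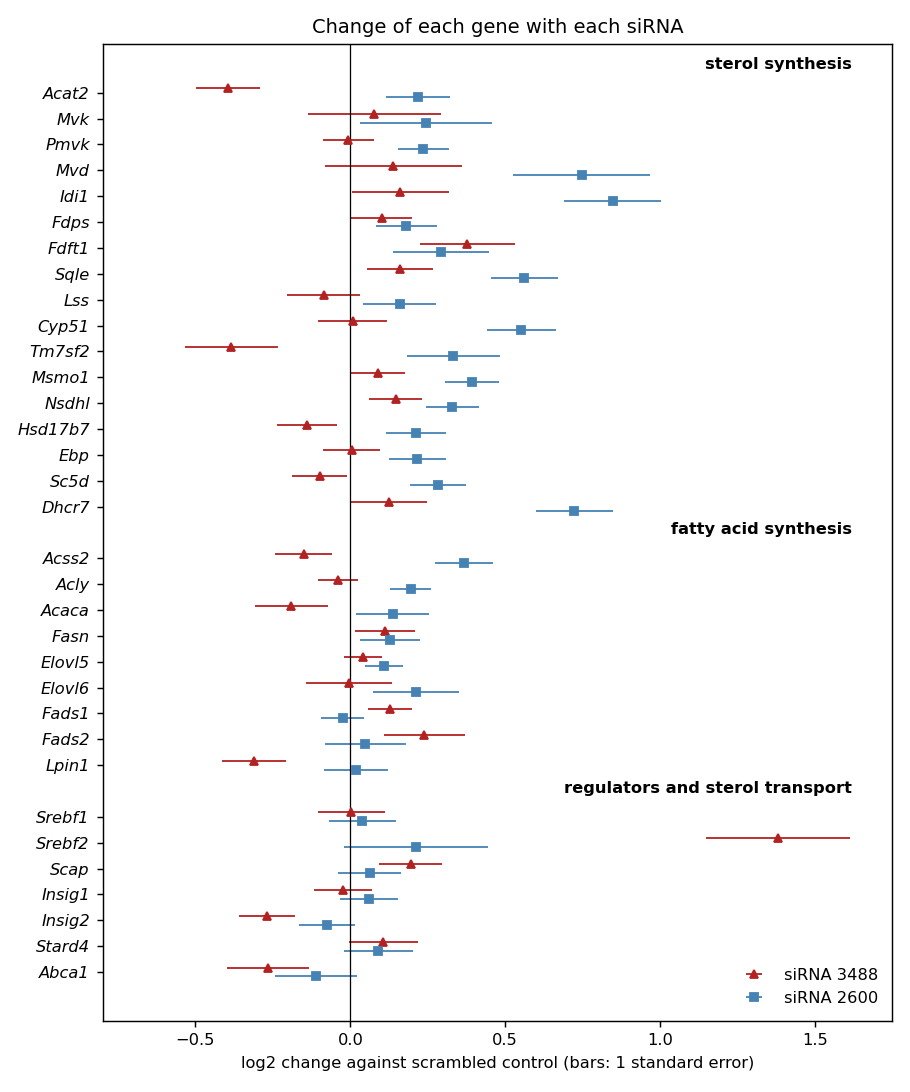
Log2 change against the scrambled control (horizontal axis, bars of 1 standard error from limma) for the 33 tested genes by class, with siRNA 3488 as red triangles and siRNA 2600 as blue squares. All 17 sterol synthesis genes lie to the right of 0 with siRNA 2600, and Srebf2 with siRNA 3488 lies at 1.38.

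Tm7sf2, a sterol reductase, showed the widest gap of the class. It read 295 and 406 with siRNA 3488 and 592 and 547 with siRNA 2600, against 406, 508 and 448 in the controls. The siRNA 3488 arrays were at or below the lowest control and the siRNA 2600 arrays above the highest. The log2 difference of siRNA 3488 from siRNA 2600 was -0.72 ± 0.16 (1.64-fold lower; limma adjusted p = 0.0355), while neither siRNA differed from the control past the test (-0.38 ± 0.15, adjusted p = 0.108, and 0.33 ± 0.15, adjusted p = 0.325). For Idi1, Acat2, Dhcr7 and Cyp51 the same difference was -0.69 ± 0.17, -0.61 ± 0.11, -0.60 ± 0.13 and -0.54 ± 0.12 (limma adjusted p = 0.0449, 0.0186, 0.0342 and 0.0339), and the second Cyp51 probe set gave -0.49 ± 0.12 (adjusted p = 0.0431). For Sqle it was -0.40 ± 0.12 and missed the threshold (adjusted p = 0.0731).

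Sc5d, the sterol desaturase, had 3 probe sets. Probe set 1387926_at read 758 and 812 with siRNA 3488 and 986 and 1059 with siRNA 2600, against 914, 814 and 797 in the controls. Probe set 1389111_at read 495 and 478, then 703 and 652, then 602, 553 and 554. In both the siRNA 2600 arrays were highest, and the differences of siRNA 3488 from siRNA 2600 were -0.38 ± 0.10 and -0.48 ± 0.10 (limma adjusted p = 0.0483 and 0.0293). The third, 1390777_at, gave -0.031 ± 0.18, with overlapping arrays. Its 95% interval, -0.44 to 0.37, held the value of 1387926_at but not that of 1389111_at. Whether the probe sets of Sc5d differed from each other was not tested.

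Nsdhl and Fdft1 were, with Sqle and Idi1, the sterol genes with the lowest p over both siRNAs. Nsdhl, a sterol dehydrogenase, read 665 and 698 with siRNA 3488 and 756 and 790 with siRNA 2600, against 583, 636 and 628 in the controls. All 4 siRNA arrays were above all 3 controls, with a log2 change over both siRNAs of 0.24 ± 0.088 that did not pass the test (limma adjusted p = 0.208), and its dimmer probe set 1392604_at gave -0.26. Fdft1, squalene synthase, read 831 and 922, then 674 and 1010, against 619, 751 and 656 (0.33 ± 0.13, adjusted p = 0.23). One siRNA 2600 array overlapped the controls, and its second probe set, 1389906_at, gave 0.0091. Over both siRNAs together 0 of 33 tested genes were called, where 0.18% of all genes were called higher and 0.02% lower. Of the 33, 7 had an unadjusted p under 0.05, 6 of them of sterol synthesis, against 17.6% of all genes. The sterol median was 0.16, the median of fatty acid genes 0.078, that of regulators 0.021 and that of all genes -0.011. Sqle had the lowest adjusted p of the members, 0.207 at 0.36 ± 0.13. Leaving out siRNA 2600 replicate 1 gave 2 calls.

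Among the fatty acid genes none passed against the control with either siRNA. With siRNA 2600, 8 of 9 tested genes lay above 0 with a median log2 change of 0.13, where 52.4% of all genes lay above 0. Both arrays lay above the controls for 4 of the 9, against 18.8% of all genes. None passed the limma test, 2 having an unadjusted p under 0.05, against 15.6% of all genes. With siRNA 3488 the median was -0.00319 and 4 of 9 lay above 0. Of the 9, 0 passed, against 9.31% of all genes called higher and 7.6% lower. An unadjusted p under 0.05 was seen for 1 of the 9, against 33.3% of all genes. Between the siRNAs, 1 of 9, Acss2, was called lower with siRNA 3488, against 3.42% of all genes called lower and 3.53% higher. The median was -0.22, ranging from -0.29 to -0.038 with 1 array left out.

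Acss2 makes acetyl-CoA from acetate in the cytosol and so feeds both routes. It read 556 and 573 with siRNA 3488 and 788 and 828 with siRNA 2600, against 678, 618 and 587 in the controls. The groups did not overlap and took the same order as for Acat2. The difference of siRNA 3488 from siRNA 2600 was -0.52 ± 0.10 (1.43-fold lower; limma adjusted p = 0.0219). Against the control neither siRNA passed (-0.15 ± 0.093, adjusted p = 0.296, and 0.37 ± 0.093, adjusted p = 0.104). The call ended without siRNA 3488 replicate 1 or 2, siRNA 2600 replicate 1 or control replicate 2, where the difference was still below 0.

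Acly, the citrate lyase that supplies cytosolic acetyl-CoA, read 2183 and 2226 with siRNA 3488 and 2696 and 2493 with siRNA 2600, against 2299, 2314 and 2185 in the controls. Only siRNA 2600 lay apart from the controls, and the difference between the siRNAs was -0.23 ± 0.071 (limma adjusted p = 0.0833). Acaca, the carboxylase that commits carbon to fatty acids, read 966 and 934, then 1400 and 1016, then 1127, 1049 and 1080. Its siRNA 3488 arrays were the lowest, and its siRNA 2600 arrays lay far apart (difference between siRNAs -0.33 ± 0.13, adjusted p = 0.159). Lpin1, a phosphatidate phosphatase, read 392 and 439, then 547 and 495, then 519, 495 and 529. It was lowest with siRNA 3488, by -0.31 ± 0.10 against the control (adjusted p = 0.0681). Against the control, dimmer probe sets of Acaca (1387538_at) and Lpin1 (1372524_at) gave -0.11 and -0.19 with siRNA 3488 and 0.11 and 0.22 with siRNA 2600.

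Fasn, the fatty acid synthase, read 1429 and 1465 with siRNA 3488 and 1367 and 1562 with siRNA 2600, against 1352, 1197 and 1479 in the controls. All groups overlapped in this probe set. Its log2 change was 0.13 with siRNA 2600, with a 95% interval of -0.088 to 0.34, and 0.11 with siRNA 3488 (-0.10 to 0.33). The dimmer Fasn probe set 1367707_at gave 0.25 ± 0.12 with siRNA 2600 (limma adjusted p = 0.377) and 0.11 with siRNA 3488. There both siRNA 2600 arrays lay above all other arrays. Elovl5, an elongase of polyunsaturated chains, read 6701 and 6344, then 7035 and 6643, then 6160, 6374 and 6484. Fads2, a desaturase, read 472 and 481, then 432 and 404, then 478, 379 and 364. Neither changed past the test. Fads1 and Elovl6, a desaturase and an elongase, had log2 changes of -0.025 and 0.21 with siRNA 2600 and of 0.13 and -0.00319 with siRNA 3488. Dimmer probe sets of Elovl5 (1387630_at) and Elovl6 (1394401_at) gave -0.010 and 0.088 with siRNA 2600 and -0.17 and 0.26 with siRNA 3488.

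**Figure D3:**
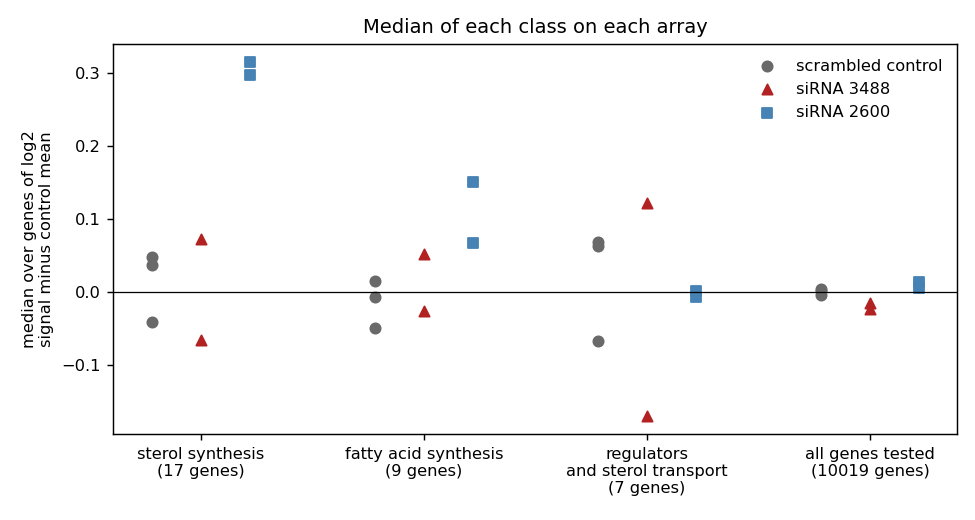
Median over genes of the log2 signal minus the control mean (vertical axis) for each class and for all 10019 genes tested, 1 point per array (grey circles, control; red triangles, siRNA 3488; blue squares, siRNA 2600). For sterol synthesis the siRNA 2600 arrays lie at 0.30 and 0.32 and the other arrays between -0.065 and 0.073.

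Among the regulators, Srebf2 rose with siRNA 3488. It read 1889 and 2065 with siRNA 3488 and 609 and 1270 with siRNA 2600, against 683, 793 and 808 in the controls. The siRNA 3488 arrays were far above all others, and the siRNA 2600 arrays fell on either side of the controls. Mean signals (± SD) were 1977 ± 125, 939.5 ± 467 and 761 ± 68.5 in that order of groups. Srebf2 rose by 1.38 ± 0.23 with siRNA 3488 (2.60-fold; 95% interval 0.86 to 1.90; limma adjusted p = 0.00665) and had 0.21 ± 0.23 with siRNA 2600 (adjusted p = 0.721). The difference between the siRNAs was 1.17 ± 0.25 (2.25-fold higher with siRNA 3488; adjusted p = 0.0315). The rise ranged from 1.30 to 1.47 over 16 alternative settings and was called in 14; without siRNA 3488 replicate 2 its adjusted p was 0.0635, and it was also lost with no intensity trend. The difference between the siRNAs ran from 0.64 without siRNA 2600 replicate 1 to 1.70 without replicate 2.

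This rests on probe set 1371979_at. The other probe set of Srebf2, 1377489_at, was under the tested level and read 14.4 and 16.8 with siRNA 3488, 5.66 and 53.7 with siRNA 2600, against 8.58, 12.5 and 13.5 in the controls. Replicate 2 was the higher siRNA 2600 array in both probe sets.

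Insig2 was lower with siRNA 3488. Probe set 1393690_at read 421 and 441 with siRNA 3488 and 569 and 742 with siRNA 2600, against 652, 747 and 596 in the controls. The siRNA 3488 arrays lay below all others, and the siRNA 2600 arrays overlapped the controls. Insig2 fell by 0.62 ± 0.13 with siRNA 3488 in this probe set (1.54-fold lower; limma adjusted p = 0.0139), had -0.027 ± 0.13 with siRNA 2600 (adjusted p = 0.948), and differed by -0.59 ± 0.15 between the siRNAs (adjusted p = 0.0428). The fall was not called without siRNA 3488 replicate 1 or 2 or control replicate 1 or 2, or with no intensity trend. The brighter probe set 1389377_at read 525 and 585, then 632 and 635, then 700, 663 and 641. There all 4 siRNA arrays were below the controls, with -0.27 ± 0.091 for siRNA 3488, short of the threshold (adjusted p = 0.0722).

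**Figure D4:**
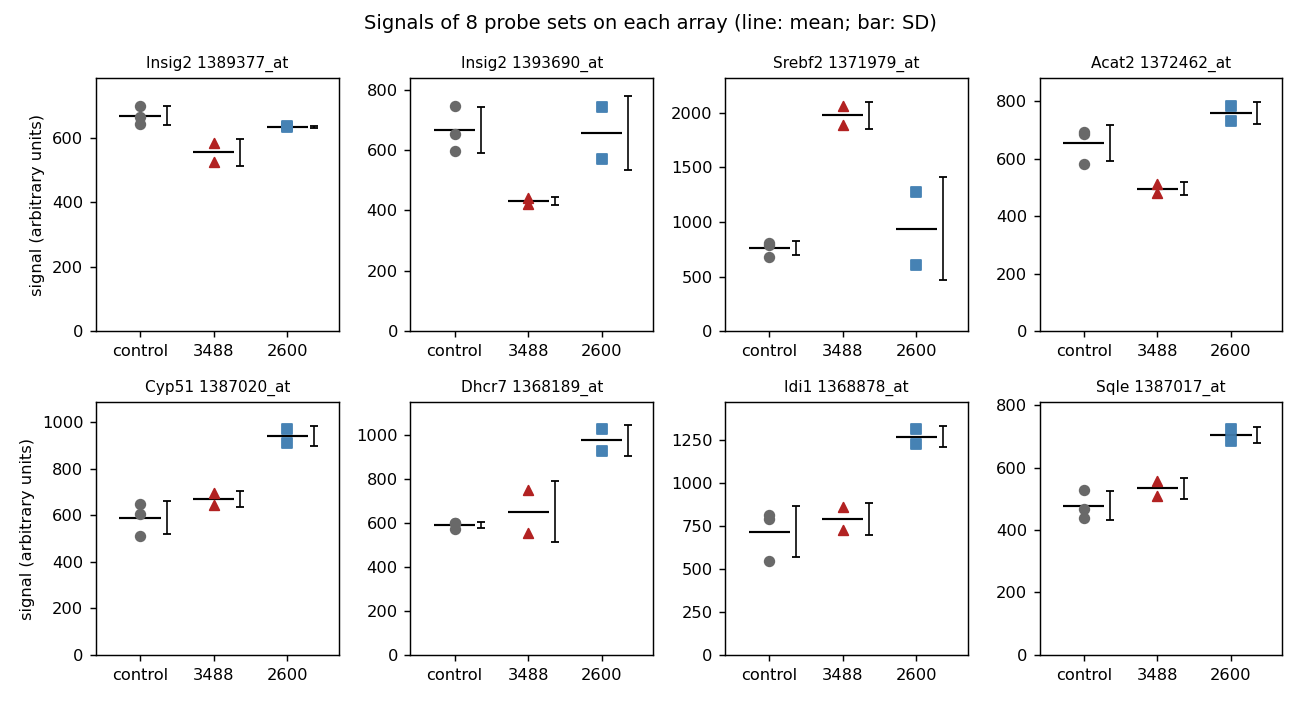
Signals in arbitrary units (vertical axis, from 0) of 8 member probe sets on each array, for control (grey circles, n = 3), siRNA 3488 (red triangles, n = 2) and siRNA 2600 (blue squares, n = 2), with the mean as a line and the SD as a bar. Srebf2 is highest with siRNA 3488, Insig2 1393690_at and Acat2 are lowest with it, and Idi1, Dhcr7, Cyp51 and Sqle are highest with siRNA 2600.

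With siRNA 2600 the regulators had the smallest median of the 3 classes. Of 7 tested genes 0 were called, against 0.729% of all genes called higher and 0.369% lower. Of the 7, 0 had an unadjusted p under 0.05, against 15.6% of all genes, and the median log2 change was 0.061. Insig1 and Stard4, both known SREBP-2 targets, had 0.061 (95% interval -0.15 to 0.27) and 0.090 (-0.16 to 0.34). A dimmer Stard4 probe set, 1396521_at, read 439 and 449 with siRNA 2600 and 360 and 381 with siRNA 3488, against 355, 396 and 320 in the controls, and gave 0.32 ± 0.12 (limma adjusted p = 0.243). The dimmest Stard4 probe set, 1386279_at, gave 0.30 ± 0.22 with siRNA 2600 (limma adjusted p = 0.583). Srebf1, the regulator of fatty acid genes, had 0.039 with siRNA 2600 and 0.00350 with siRNA 3488. Its dimmer probe set 1371104_at gave -0.018 and -0.086.

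Scap, the SREBP escort, read 683 and 706 with siRNA 3488 and 678 and 591 with siRNA 2600, against 647, 555 and 622 in the controls. Abca1, the sterol exporter, read 359 and 387, then 409 and 422, then 479, 497 and 378. Their changes with siRNA 3488 were 0.20 ± 0.10 and -0.27 ± 0.13 (limma adjusted p = 0.22 and 0.199). The dimmer Scap probe set 1384464_at gave -0.078. The dimmer Abca1 probe sets 1382431_at, 1384381_at and 1394490_at gave -0.12, -0.36 and -0.41. With siRNA 3488 the class median was 0.00350, and 1 of 7, Srebf2, was called higher and 0 lower by the brightest probe set, against 9.31% and 7.6% of all genes.

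The class medians put these patterns side by side. On the sterol genes the siRNA 2600 arrays had medians of 0.30 and 0.32, the siRNA 3488 arrays -0.065 and 0.073, and the controls -0.041 to 0.049. On the fatty acid genes the siRNA 2600 arrays had 0.15 and 0.068, the siRNA 3488 arrays 0.052 and -0.025, and the controls -0.049 to 0.015. The siRNA 2600 arrays thus lay above all others in both classes, by less in the second. The comparisons with each siRNA share the 3 control arrays.

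Of 22 other genes of sterol and lipid supply, 13 were tested, while Nr1h3, Mylip, Abcg1, Acacb and Thrsp were under the tested level. With siRNA 2600, 0 of 13 were called, against 0.729% of all genes called higher and 0.369% lower. An unadjusted p under 0.05 was seen for 1 of the 13, against 15.6% of all genes, and the median was 0.029. With siRNA 3488, 1 of 13 was called, against 9.31% of all genes called higher and 7.6% lower. This was Npc2, which carries cholesterol out of lysosomes. It read 12926 and 14327 with siRNA 3488 and 11267 and 11370 with siRNA 2600, against 9324, 9925 and 9595 in the controls. The 3 groups did not overlap, and Npc2 rose by 0.50 ± 0.065 with siRNA 3488 (limma adjusted p = 0.00287), with 0.24 ± 0.065 for siRNA 2600 (adjusted p = 0.123). Npc2 was among the brightest 10% of probe sets tested, whose median change was 0.15 with siRNA 3488 and 0.049 with siRNA 2600, and the 18 hybridisation control probe sets had medians of 0.52 and 0.031. The Npc2 change with siRNA 3488 was 0.25 with cyclic loess (adjusted p = 0.00849) and 0.13 with quantile normalization, where it was not called (adjusted p = 0.0739). The part of the shift in bright signals in this change was not tested. By a dimmer probe set Soat1, which esterifies cholesterol, fell by 0.46 ± 0.10 and Me1, a source of NADPH, rose by 0.33 ± 0.081 with siRNA 3488 (adjusted p = 0.0134 and 0.0236), while their brightest probe sets gave -0.058 and 0.041. Between the siRNAs 0 of 13 were called, against 3.53% of all genes called higher and 3.42% lower. An unadjusted p under 0.05 was seen for 3, against 25.4% of all genes. Over both siRNAs 0 were called, against 0.18% and 0.02%, and 1 had an unadjusted p under 0.05, against 17.6%. The rest of the 22 were not analysed here.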

How the data were processed

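Signals of 7 Affymetrix rat 230 2.0 arrays were used. The authors deposited linear intensity values, 1 for each probe set of an array, from GCOS 1.4 according to the submitters' processing notes. Scaling settings are not given in the sources. Gene symbols came from the platform annotation, and probe sets with several symbols were not named. Groups came from the sample titles.

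Values under 1 were raised to 1 before log2. Without the control probe sets, the upper 60% by mean log2 signal (18625 of 31042) were fitted with limma 3.58.1 in R 4.3.3 (lmFit, eBayes with an intensity trend). P-values were adjusted by Benjamini-Hochberg over all of them, and calls made under 0.05. The comparison of both siRNAs with the control used 2 groups, and the others 3 groups with all 7 arrays. Values are log2 change ± standard error, or mean ± SD. The few arrays limit the precision. The script was tested on simulated data.

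Per-array values are given for called probe sets and, in each class, for the 4 genes with the lowest p between the siRNAs and the 4 with the lowest p over both siRNAs, with a few more added after their values were seen (Mvd, Msmo1, Stard4 1396521_at and probe sets under the tested level). The members, lists and motifs were chosen with earlier results of these data known. Alternatives were 3 normalizations, 2 filters, an added offset of 32, a fit without the intensity trend, the replicate number as a block, other arrays in the fit, other probe set rules and leaving out each array. Same-numbered cultures of different groups deviated together with correlations of -0.05 to 0.16, so the numbers were not treated as pairs. Promoter sequences came from RefSeq, build GRCr8.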

Additional observations from a re-analysis of the deposited data

Results flagged for a closer look

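The effects of siRNA 3488 and siRNA 2600 differed by the test of the difference itself (limma, adjusted over all probe sets tested) for 11 of 54 member probe sets tested, against 2.84% of all probe sets called higher with siRNA 3488 and 3.17% called lower. The log2 differences of siRNA 3488 from siRNA 2600 were -0.61 for Acat2, -0.69 for Idi1, -0.54 and -0.49 for the Cyp51 probe sets, -0.72 for Tm7sf2, -0.38 and -0.48 for Sc5d, -0.60 for Dhcr7, -0.52 for Acss2, 1.17 for Srebf2 and -0.59 for Insig2. Both siRNA 3488 arrays lay below both siRNA 2600 arrays in 10 of the 11, and above them for Srebf2. The 11 were picked by the test on these same arrays, so this order is no separate support. Over all genes, 28.3% lay lower without overlap. No group had 4 or more arrays, so single arrays were not tested as outliers.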

How the results depend on the processing

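The 18 calls of single member probe sets kept their sign under the 16 alternatives run for each, but 0 of them stayed past the threshold under all 16. Of the 198 uncalled values of single probe sets, 65 changed sign under at least 1 alternative. With 1 array left out, calls of members ranged from 0 to 2 over both siRNAs, 0 to 3 with siRNA 3488, 0 to 1 with siRNA 2600 and 0 to 7 between the siRNAs. Calls of sterol genes ranged from 0 to 1, 0 to 2, 0 to 1 and 0 to 4, and of other pathway genes from 0 to 1 over both, 1 to 3 with siRNA 3488 and 0 to 1 between the siRNAs. The mean of the siRNA effects in the fit of 3 groups called 4 members over both siRNAs, 3 of them of sterol synthesis, and 1 other pathway gene.

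With siRNA 3488, quantile normalization and cyclic loess each called 1 member and 0 sterol genes, and no intensity trend 0 and 0. The arrays of the compared groups alone called 2 sterol genes and 3 other pathway genes; quantile normalization, the upper 40% and the offset called 0, 3 and 2 of the latter. With siRNA 2600, no filter and no trend called 0 members and the arrays of the compared groups alone 1. Between the siRNAs, quantile normalization, centring, loess, no filter, no trend and the compared arrays alone called 4, 5, 4, 2, 0 and 0 members, and 2, 3, 2, 1, 0 and 0 sterol genes, and the upper 40% called 1 other pathway gene. Median centring turned the calls with siRNA 3488 to Srebf2 and Fdft1, both higher, with Acat2 not called, and the share of all calls that were higher went from 55.1% to 85.4%. With siRNA 2600 it went from 66.4% to 88.1%, and over both siRNAs from 90% to 100%, or 74.4% with quantile normalization. The cause was not tested.

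Same-numbered cultures were not shown to be paired. With the replicate block, calls were 1 member and 0 sterol genes with siRNA 3488, 1 and 1 with siRNA 2600, 8 and 6 between the siRNAs with 1 other pathway gene, and the siRNA 3488 sterol median was 0.000301. Number 3 occurred only among the controls, so the block took control replicate 3 out of the estimated changes. Leaving that array out gave the same siRNA 3488 sterol median.

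Over both siRNAs the sterol median was 0.25 with quantile normalization and centring and 0.23 with loess, and that of fatty acid genes 0.17 with centring. Centring also moved the median of all genes, to 0.080 over both siRNAs, 0.073 with siRNA 3488 and 0.095 with siRNA 2600. With siRNA 3488 the sterol median was 0.17 with centring, 0.00763 with the upper 40%, 0.00390 over all probe sets and -0.0655 to 0.11 with 1 array left out. That of fatty acid genes was 0.0913 with centring, -0.0503 with loess and -0.0252 to 0.0519, and that of regulators -0.17 to 0.12. With siRNA 2600 centring gave 0.38 for sterol and 0.21 for fatty acid genes, with 0.27 to 0.35 and 0.0679 to 0.16 for 1 array left out. Between the siRNAs the sterol median was -0.29 with quantile normalization and -0.38 to -0.29, and that of fatty acid genes -0.12 over all probe sets and -0.29 to -0.0383.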
